A study of Caenorhabditis elegans with 14 samples.

Results

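Clone Y73F8A is a stretch of the piRNA-dense right part of Caenorhabditis elegans chromosome IV, named after the yeast artificial chromosome from which it was sequenced. It carries 1118 of the 15366 piRNA loci in the small RNA count tables. They were taken as all rows of the piRNA class whose identifier starts with the clone's name, after leaving out the 10 piRNAs with the highest summed counts. None of those 10 lies in Y73F8A, so 0 loci of the clone were lost. The least abundant of the 10, 21ur-5395, had a summed count of 1132. The most abundant locus of Y73F8A, 21ur-1486, had 548, and the most abundant of the 14238 other piRNA loci kept, 21ur-482, had 1067. All 1118 loci matched a RefSeq gene of assembly WBcel235, all are annotated there as piRNA genes of 21 nucleotides, and all lie on chromosome IV.

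The study asked how piRNAs depend on SNPC-4, a subunit of the SNAP complex that binds promoters of small nuclear RNA genes and that the study maps to piRNA domains. Small RNAs came from whole young adults of the wild-type strain N2 raised on feeding RNAi, in which worms eat bacteria that make double-stranded RNA. One group ate bacteria with the empty vector L4440 (control RNAi) and the other ate bacteria making snpc-4 double-stranded RNA (snpc-4 RNAi), each with 1 library. The labels differ on whether feeding began at the L1 or the L2 stage, and the snpc-4 mRNA itself was not analysed here.

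piRNAs of worms, also called 21U-RNAs, are short RNAs that begin with uridine, are made in the germline and guide the Argonaute protein PRG-1 to foreign or unwanted transcripts. Most worm piRNA genes are tiny separate transcription units, packed between and inside the introns of other genes on chromosome IV and preceded by a short conserved promoter motif. RNA polymerase II makes a short precursor from each, which is trimmed to the mature piRNA. A stretch such as Y73F8A is therefore many separate genes side by side, not 1 long precursor.

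The libraries rest on totals of 20413480 reads (control RNAi) and 20875010 reads (snpc-4 RNAi) behind the RPM, the deposited unit that divides each count by a library total, of which the listed transcripts hold 956653 and 1074622 counts. A read is worth 0.0490 and 0.0479 RPM, and a count of 0 allows up to 3 counts, or 0.147 and 0.144 RPM. Per the labels, inserts of 22 to 30 nucleotides were sequenced, a range that starts just above the length of a piRNA. With 1 library per group, no difference has a replicate check, no test between conditions was possible, and each ratio compares 2 libraries. All intervals are at 95%. For counts and ratios they hold counting error alone, and since the reads carry no molecular identifiers, copies made by PCR count as separate reads. For medians and shares of loci they treat the loci as a sample and leave out variation between animals. In whole animals, fewer germ cells and less piRNA per germ cell cannot be told apart.

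Most Y73F8A loci had no reads, and which loci had reads followed whether a locus shares bases with a neighbour. Under control RNAi, 218 of 1118 loci had at least 1 read, or 19.5% (exact Clopper-Pearson interval 17.2% to 21.9%). Under snpc-4 RNAi, 200 had reads, or 17.9% (15.7% to 20.3%). Reads in both libraries were found for 157 loci, in the control library alone for 61, in the snpc-4 library alone for 43, and in neither for 857. Of the 14238 other piRNA loci, 2153 had reads in both libraries, or 15.1%. Reads in the control library alone were found for 5.46% of the Y73F8A loci and 6.72% of the others. For the snpc-4 library alone the shares were 3.85% and 3.88%, and for neither library 76.7% and 74.3%. Per library, the shares of the other piRNA loci with reads were 21.8% (21.2% to 22.5%) under control RNAi and 19.0% (18.4% to 19.7%) under snpc-4 RNAi.

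Of the 1118 loci, 558 share at least 1 base with another piRNA locus in the RefSeq table and 560 do not. Of the 560 without overlap, 206 had reads in the control library, or 36.8% (32.8% to 40.9%), and 187 in the snpc-4 library, or 33.4% (29.5% to 37.5%). Of the 558 with overlap, 12 had reads in the control library, or 2.15% (1.12% to 3.73%), and 13 in the snpc-4 library, or 2.33% (1.25% to 3.95%). The overlapping loci are 49.9% of the clone's loci and held 1.96% of its control counts and 1.95% of its snpc-4 counts. The sources used here do not say how reads over more than 1 locus were counted, and the table used for the overlap carries no strand. At an overlapping locus, 0 counts therefore do not show that the piRNA was absent.

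The other piRNA loci showed the same split, with 35.6% and 30.9% of 8236 loci without overlap having reads in the control and snpc-4 libraries, and 3.02% and 2.68% of 5999 with overlap. Overlapping loci made up 49.9% of Y73F8A and 42.1% of the rest of the piRNAs. The share without overlap was 50.1% in Y73F8A and, in clones with a like number of piRNA loci, 49.3% in Y105C5A, 51.9% in Y105C5B and 54.5% in Y57G11C. Over all loci the mean was 2.19 control counts per locus in Y73F8A and 2.76 elsewhere, and 1.19 against 1.39 snpc-4 counts. Among loci without overlap the means were 4.29 and 4.52 control counts, and 2.33 and 2.29 snpc-4 counts. Counted per locus without overlap, Y73F8A thus lay closer to the other piRNAs than over all loci.

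**Figure D1:**
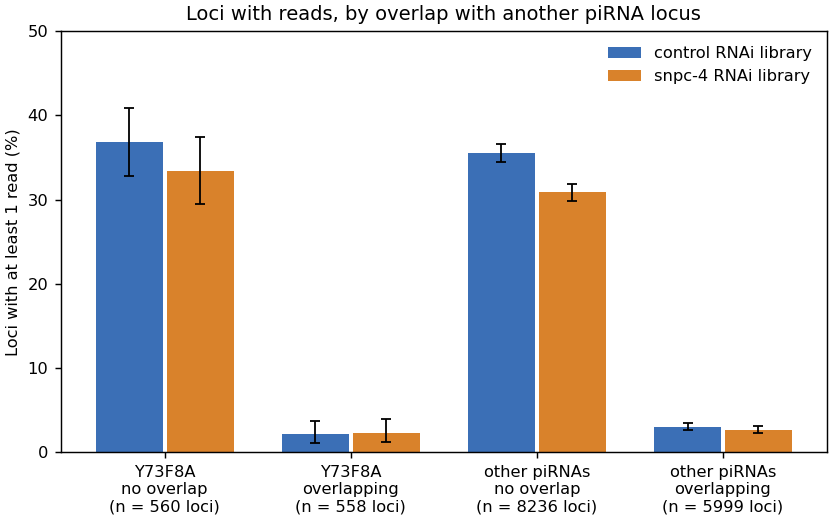
Percentage of piRNA loci with at least 1 read (vertical axis) in the control RNAi and snpc-4 RNAi libraries, for Y73F8A and for all other piRNA loci without the 10 most abundant, split by overlap with another piRNA locus. Bars are shares with exact 95% intervals; loci without overlap stand at 30.9% to 36.8% and overlapping loci at 2.15% to 3.02%.

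The exceptions among the overlapping loci were few. Reads in either library were found for 19 of the 558, and 18 of these had at most 8 counts in a library. The exception was 21ur-5787 (Y73F8A.556), which overlaps 2 other piRNA loci and had 25 control and 3 snpc-4 counts. The next were 21ur-6457, with 4 and 8 counts, and 21ur-8509, with 7 and 4. Position in the span of a protein-coding gene, counted from 1 shared base, went with no such difference among loci without overlap. Of the 167 in such a span, 44.9% (37.2% to 52.8%) had reads in either library. Of the 393 outside, 42.5% (37.6% to 47.5%) had reads. Among overlapping loci the shares were 1.60% (0.330% to 4.59%) of 188 in such spans and 4.32% (2.49% to 6.93%) of 370 outside.

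Reads were spread unevenly over the loci that had them. In the control library the median over the 218 loci with reads was 3 counts, with quartiles of 1 and 8.75 and a highest value of 359. In the snpc-4 library the median over 200 loci was 3, with quartiles of 1 and 5.25 and a highest value of 189. A count of exactly 1 was found at 56 control and 70 snpc-4 loci, and a count of 50 or more at 9 and 4. Thus 50% of the clone's counts came from the 13 most abundant loci in the control library and from 14 in the snpc-4 library. The variance of counts over loci was 90.7 times the mean under control RNAi and 45.9 times under snpc-4 RNAi, against 1 for counts that differ by sampling alone. Without 21ur-1486 these values were 45.2 and 22.5.

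The 10 most abundant loci held 45.8% (43.8% to 47.8%) of the control counts and 45.3% (42.6% to 48.0%) of the snpc-4 counts. Clones with a like number of piRNA loci were similarly uneven. The 10 most abundant loci held 47.8% of the control counts of Y57G11C (1071 loci), 40.8% of those of Y105C5A (1233 loci) and 44.0% of those of Y105C5B (1378 loci). The locus 21ur-1486 alone held 14.7% of the Y73F8A control counts and 14.2% of the snpc-4 counts. The concentration of reads on a few loci was therefore nearly equal in the 2 libraries while the total fell.

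Summed over the clone, Y73F8A piRNAs were lower in the snpc-4 library. The control total was 2448 counts or 119.9 RPM (exact Poisson interval 115 to 125), and the snpc-4 total was 1331 counts or 63.8 RPM (60.4 to 67.3). The ratio was 0.532 (exact interval 0.497 to 0.569). Without 21ur-1486 it was 0.535 (0.497 to 0.575), and without the 10 most abundant loci 0.536 (0.489 to 0.588), so the fall did not rest on these loci. Loci without overlap gave 0.532 (0.497 to 0.569), and the few reads of overlapping loci gave 0.530 (0.315 to 0.871).

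The other piRNA loci, 14238 without the 10 most abundant, had a total ratio of 0.494 (0.486 to 0.502), slightly lower than that of Y73F8A. The ratio of the 2 ratios was 1.08 (exact conditional interval 1.00 to 1.15), and 1.09 (0.989 to 1.19) without the 10 most abundant Y73F8A loci. Against clones Y105C5A and Y105C5B, whose 2611 loci had a ratio of 0.453 (0.433 to 0.474), it was 1.17 (1.08 to 1.27). Against the Y57G11 clones, whose 1502 loci had a ratio of 0.495 (0.473 to 0.519), it was 1.07 (0.989 to 1.16). These intervals hold no variation between loci, and, of the 42 Y73F8A loci with a mean of at least 10 counts, 7 had an interval of their own that lay apart from the clone's ratio. From 7.28% of all piRNA loci, the clone gave 3.78% of all piRNA counts under control RNAi and 4.15% under snpc-4 RNAi. Those totals include the 10 most abundant piRNAs, none of them in Y73F8A, which held 35.6% and 34.0% of the counts.

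Markers of oocytes and embryos moved with the piRNAs. Of the 8 microRNAs of the mir-35 family, which are expressed in oocytes and embryos, 7 were lower under snpc-4 RNAi and mir-41 was at 0 in both. Their sum fell from 54 counts or 2.65 RPM under control RNAi to 16 counts or 0.766 RPM under snpc-4 RNAi. The ratio of the sums was 0.290 (0.155 to 0.514). All members but mir-35 were under the minimum mean count required below for log2 ratios of single loci. Counts ranged from 15 and 1 for mir-38 to 3 and 2 for mir-36 and 2 and 0 for mir-42. The largest counts were those of mir-38 and of mir-35, with 15 and 5. No intervals were taken for single members at these counts, and the fall is stated for the sum. Of all listed transcripts above that minimum, 70.3% were lower. The part of germline or embryo content in the piRNA ratios was not tested. The muscle microRNA mir-1 had a ratio of 1.31, and the 5 microRNAs of seam cells and larval timing summed to a ratio of 1.16 (1.15 to 1.16), with lin-4 at 0 in both. Most of that sum came from mir-84 (191953 control and 222719 snpc-4 counts) and mir-48 (163287 and 197065). A larger rise, from 673 to 1745 counts, was seen for mir-241. The neuronal mir-124 and lsy-6 were at 0 in both. The sources used here do not state the annotation or counter, so a 0 for these or for lin-4 does not show absence. Genes of other classes in the same clone gave a local comparison. The tRNA gene Y73F8A.t3 had 116 control and 125 snpc-4 counts (ratio 1.05, 0.812 to 1.37), and Y73F8A.t4 had 98 and 124 (ratio 1.24, 0.942 to 1.63). Copies of tRNA genes can share reads, so these values are uncertain. The clone's other tRNA genes and its snoRNA, Y73F8A.1175, had at most 1 count.

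Log2 ratios of single loci, with 1 read added to each count, were taken for the 42 Y73F8A loci with a mean of at least 10 counts over the 2 libraries. Of these 42, 41 had a lower value under snpc-4 RNAi and 1 a higher one; of all transcripts above that minimum 70.3% were lower, and of the other piRNAs 88.8%. A fall of at least 2-fold was seen at 22 of the 42, against 29.4% of all 1109 listed transcripts tested and 55.7% of the 508 other piRNA loci tested. A rise of at least 2-fold was seen at 0, against 2.61% of all transcripts and 0.984% of the other piRNAs. The median log2 ratio was -1.06 (exact order-statistic interval -1.25 to -0.74), against -1.11 (-1.18 to -1.03) for the other piRNAs. Y73F8A loci above the minimum thus lay near the piRNA background.

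The other 1076 Y73F8A loci did not reach the minimum, so these counts describe abundant loci alone. Of the 42, 14 passed with under 10 counts in the snpc-4 library and had to be lower, and 1 passed with under 10 in the control library. Of the 28 Y73F8A loci with at least 10 counts in the snpc-4 library, a choice that favours higher values there, 27 were lower, 11 of them at least 2-fold. Of the 381 other piRNA loci chosen in this way, 312 were lower, 171 of them at least 2-fold. Scaled by the median of ratios over all 1109 transcripts, of which piRNAs are a large part, every log2 ratio rises by 0.43. Then 32 of the 42 (76.2%) were lower and 10 higher, with 9 rather than 22 at least 2-fold lower. Of the 508 other piRNA loci, 398 (78.3%) were then lower and 109 higher. With the median of the 549 transcripts other than piRNAs the shift was 0.014. The split of the 42 stayed at 41 and 1, and that of the other piRNAs at 451 and 57.

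**Figure D2:**
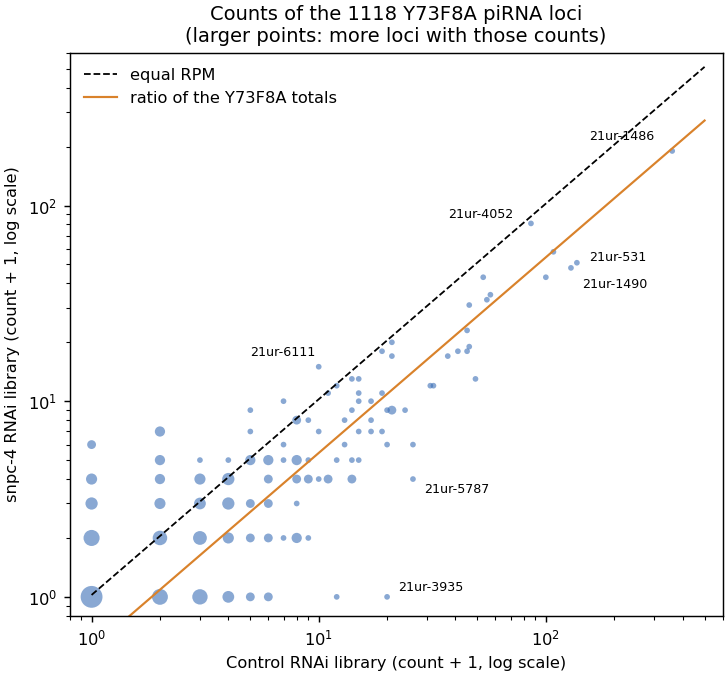
Counts plus 1 of the 1118 Y73F8A piRNA loci in the control RNAi library (horizontal axis, log scale) and the snpc-4 RNAi library (vertical axis, log scale); point size grows with the number of loci at the same counts. The dashed line marks equal RPM and the solid line the ratio of the clone's totals, 0.532. Loci with high counts lie mostly between or below the lines, with 21ur-4052 near equality and 21ur-5787 and 21ur-3935 far below.

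The most abundant loci fell by unequal amounts. The top locus, 21ur-1486 (Y73F8A.304), had 359 control counts (17.6 RPM) and 189 snpc-4 counts (9.05 RPM), a ratio of 0.515 (0.429 to 0.616). Next came 21ur-531 (Y73F8A.146), with 136 counts (6.66 RPM) and 50 counts (2.40 RPM), a ratio of 0.360 (0.255 to 0.501). Almost the same values were found for 21ur-1490 (Y73F8A.382), with 128 counts (6.27 RPM) and 47 counts (2.25 RPM), a ratio of 0.359 (0.251 to 0.505). In contrast, 21ur-4052 (Y73F8A.212) was nearly equal in the 2 libraries. It had 85 control counts (4.16 RPM) and 80 snpc-4 counts (3.83 RPM), with a ratio of 0.920 (0.670 to 1.26). Its interval lay apart from those of 21ur-531 and 21ur-1490 and from the clone's ratio of 0.532.

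Among the remaining 8 of the 12 most abundant loci, the ratio ranged from 0.391 to 0.790. The locus 21ur-1069 (Y73F8A.401) had 107 and 57 counts, at a ratio of 0.521 (0.371 to 0.725). For 21ur-4698 (Y73F8A.299) the counts were 99 and 42, at 0.415 (0.282 to 0.601), and for 21ur-1339 (Y73F8A.405) they were 45 and 18, at 0.391 (0.213 to 0.689). These 3 lay below equality beyond counting error. So did 21ur-1713 (Y73F8A.216), with 56 and 34 counts, 21ur-911 (Y73F8A.256), with 54 and 32, and 21ur-494 (Y73F8A.409), with 44 and 22. The intervals of 21ur-5980 (Y73F8A.699), with 52 and 42 counts and a ratio of 0.790 (0.513 to 1.21), and of 21ur-3215 (Y73F8A.131), with 45 and 30 counts and a ratio of 0.652 (0.397 to 1.06), included 1. So did that of 21ur-4052, which excluded the clone's ratio, whereas the intervals of 21ur-5980 and 21ur-3215 included both.

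**Figure D3:**
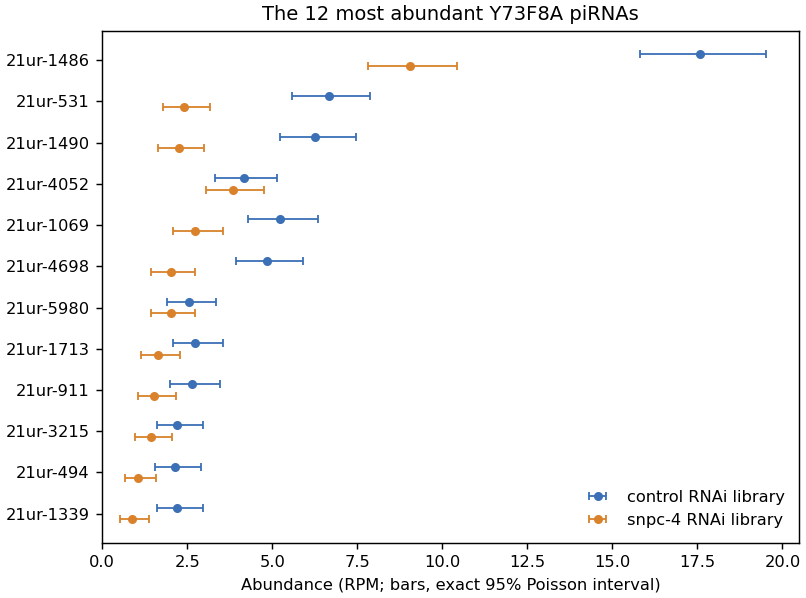
Abundance in RPM (horizontal axis) of the 12 most abundant Y73F8A piRNAs (vertical axis) in the control RNAi and snpc-4 RNAi libraries, with exact 95% Poisson intervals. All 12 are lower in the snpc-4 library, from 17.6 to 9.05 RPM for 21ur-1486; the intervals of 21ur-4052, 4.16 and 3.83 RPM, overlap widely.

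The lowest log2 ratio, -2.73, was that of the overlapping locus 21ur-5787, with 25 and 3 counts, or a ratio of 0.117 (0.0227 to 0.385). It was followed by 21ur-4841 (Y73F8A.410), with 25 and 5 counts and a log2 ratio of -2.15, and 21ur-3575 (Y73F8A.295), with 48 and 12 counts and -1.95. The next were 21ur-6007 (Y73F8A.1138), with 19 and 5 counts and -1.77, 21ur-5334 (Y73F8A.186), with 18 and 6 and -1.47, and 21ur-1490. In all 6 the interval of the plain ratio lay below 1, which the choice of the lowest values favours. Of the 6, 21ur-5787, 21ur-4841, 21ur-6007 and 21ur-5334 had under 10 counts in the snpc-4 library and passed the minimum only through the control library. The intervals of 21ur-5787, 21ur-4841, 21ur-3575, 21ur-531 and 21ur-1490 also lay below the clone's ratio of 0.532. A pair of loci fall outside this ranking because their mean is under 10 counts. The loci 21ur-3935 (Y73F8A.215), with 19 control counts, and 21ur-3949 (Y73F8A.406), with 11, had 0 in the snpc-4 library. Against the limit of 3 counts per library, they were at least 6.48-fold and at least 3.75-fold lower, with the control count taken as without error. With the error of both counts, the exact intervals of their ratios reached 0.210 and 0.390. No Y73F8A locus showed the reverse, since the highest count of a locus seen in the snpc-4 library alone was 5.

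At the other end, 1 of the 42 loci was higher in the snpc-4 library. It was 21ur-6111 (Y73F8A.553), with 9 and 14 counts and a log2 ratio of 0.55 and a ratio of 1.52 (0.613 to 3.98), an interval that included 1 and lay above the clone's ratio. The next 5 were at nearly equal counts. They were 21ur-1060 (Y73F8A.459), with 10 and 10 counts, 21ur-2047 (Y73F8A.334), with 11 and 11, 21ur-3672 (Y73F8A.195), with 20 and 19, 21ur-711 (Y73F8A.453), with 18 and 17, and 21ur-4052. Their log2 ratios lay between -0.12 and -0.032, where -0.032 is the value of equal counts in libraries of these sizes, and turned positive when scaled by the median of ratios over all transcripts. Over all 42 loci, the ratio's interval was below 1 for 24, included 1 for 18 and lay above 1 for 0. Of the 508 other piRNA loci tested, it was below 1 for 294, included 1 for 206 and lay above 1 for 8. Among the 42 it included the clone's ratio for 35, lay below it for 5 and above it for 2. The 2 above were 21ur-4052 and 21ur-6111. For the 508, set against their own total ratio of 0.494, these numbers were 366, 71 and 71.

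The total ratio was compared between classes of abundance. The 10 most abundant loci had a total ratio of 0.526 (0.476 to 0.581), the next 32 had 0.475 (0.417 to 0.540), and the 1076 loci under the minimum, with 604 and 377 counts in all, had 0.610 (0.535 to 0.695). The other piRNA loci under the minimum, 13730 in number, had 0.585 (0.564 to 0.605). The intervals of the last 2 values overlap. So do those of each pair of the Y73F8A classes, for the next 32 and the 1076 loci only from 0.535 to 0.540. Overlap does not show that classes are equal, and a ratio of these ratios was not taken. The point values followed no order of abundance.

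Along the chromosome, every part of the clone was lower in the snpc-4 library. The loci were put in order by their RefSeq positions and divided into 10 groups of 111 or 112 neighbours. Coordinates are not given because the sources used here do not state the build behind the counts. Control abundance ranged from 5.05 RPM in the first group to 24.3 RPM in the ninth, which holds 21ur-1486, and snpc-4 abundance from 2.30 RPM in the seventh group to 13.7 RPM in the ninth. The ratios ranged from 0.443 (0.308 to 0.628) in the seventh group to 0.608 (0.438 to 0.838) in the first, and all 10 intervals lay below 1 and included the clone's ratio of 0.532. No position effect on the ratio was detectable at this depth. Without the most abundant locus of each group the ratios ranged from 0.429 (0.318 to 0.574) in the third group, where 21ur-5980 was left out, to 0.692 (0.528 to 0.905) in the ninth, without 21ur-1486. The share of loci without overlap that had reads in either library ranged from 28.1% (17.0% to 41.5%) of 57 in the eighth group to 56.4% (42.3% to 69.7%) of 55 in the sixth.

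**Figure D4:**
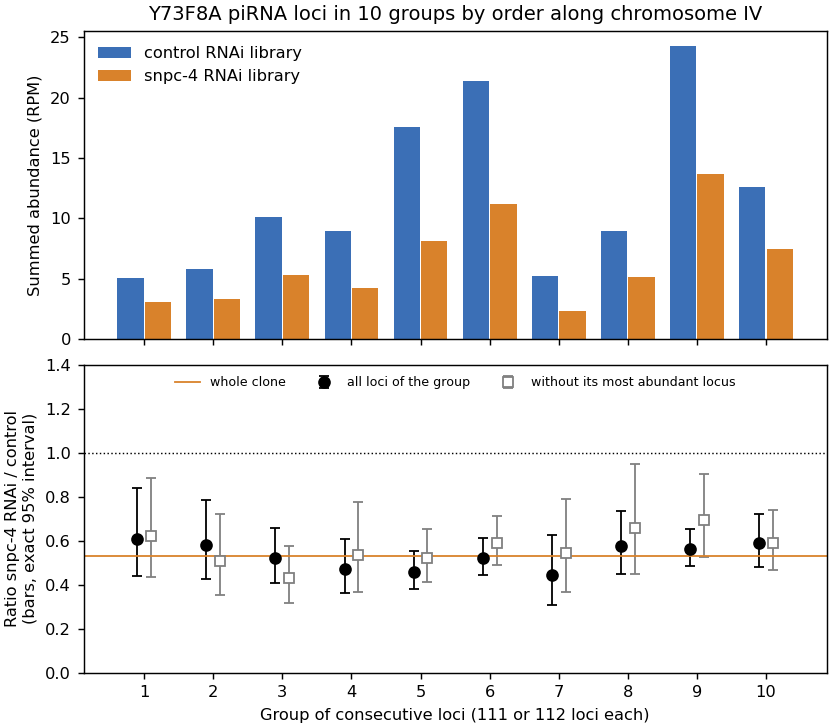
Top, summed abundance (RPM) of the Y73F8A piRNA loci in 10 groups of consecutive loci (horizontal axis) in each library. Bottom, the ratio of snpc-4 RNAi to control RPM per group with exact 95% intervals, for all loci and without the most abundant locus of the group; all groups lie below 1 (dotted line), from 0.443 to 0.608.

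Whether a locus had reads was also compared with its neighbour in this order. Each locus without overlap was set against the previous locus without overlap, and overlapping loci between them were skipped. Among loci without overlap, 124 of the 241 that followed a locus with reads had reads themselves, 51.5% (45.0% to 57.9%). Of the 318 that followed a locus with 0 counts, 118 had reads, 37.1% (31.8% to 42.7%), and the intervals of these shares do not overlap. Elsewhere on chromosome IV, within other clones, the shares were 47.1% (45.3% to 48.8%) of 3117 and 39.0% (37.5% to 40.5%) of 4195. Among the 20 most abundant Y73F8A loci, 1 pair were direct neighbours in that order. The number expected for loci placed at random was not computed.

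Among the clones of chromosome IV with at least 100 listed piRNA loci, a comparison chosen after seeing the data, Y73F8A lay inside the range of the others. Its ratio of 0.532 was higher than that of 20 of the 33 others and lower than that of 13. The 33 ranged from 0.367 (C47A4) to 0.886 (T06A10), with a median of 0.5005. The interval of 8 clones lay wholly below that of Y73F8A and the interval of 3 wholly above it. Among the 9 others with at least 1000 control counts, where counting error is smaller, the ratio ranged from 0.428 (Y64G10A) to 0.627 (Y41E3). Of those 9, 3 had an interval wholly below that of Y73F8A and 0 had one wholly above it. The share of its loci without overlap that had reads, 43.2%, was also near the middle of the 33, whose median was 42.2% with a range of 22.6% to 59.5%. Its mean of 4.29 control counts per locus without overlap compared with a median of 4.57 and a range of 0.371 to 14.1.

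**Figure D5:**
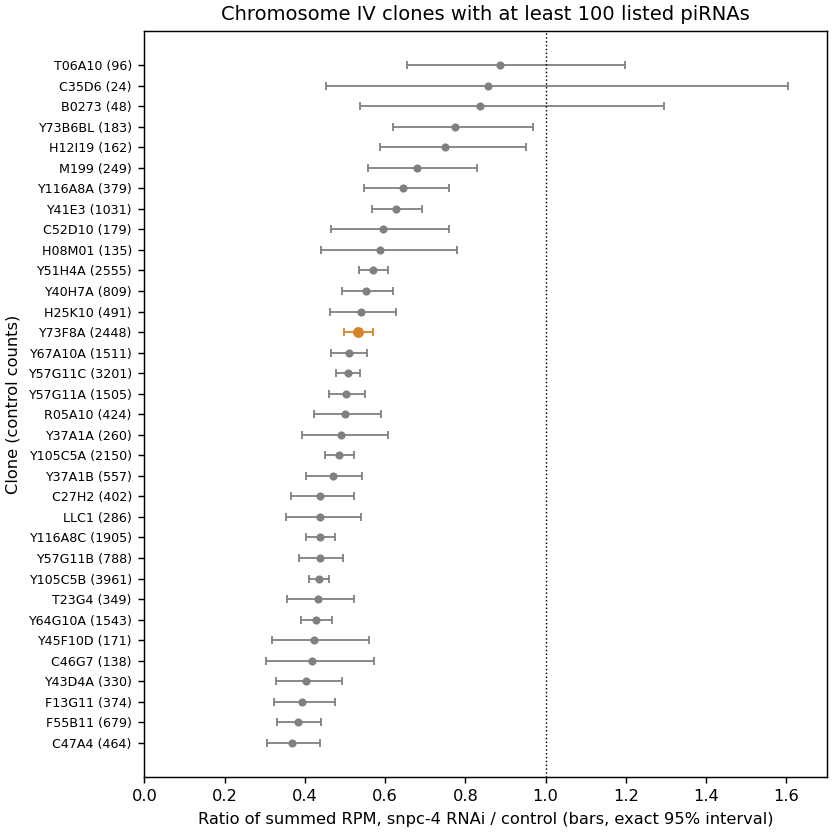
Ratio of summed RPM, snpc-4 RNAi over control (horizontal axis), with exact 95% intervals, for 34 chromosome IV clones with at least 100 listed piRNA loci (vertical axis, control counts in parentheses). Y73F8A (orange) stands at 0.532, inside the range of 0.367 to 0.886 of the others; the dotted line marks equality.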

How the data were processed

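Of 14 samples, the 2 small RNA libraries were used. The 12 chromatin samples and inputs were not used. Per the labels' protocols, the RNA libraries were made with an Illumina small RNA kit. The submitters' processing notes name BWA, with no version. Which build, annotation and counter were used is not stated there. The deposited files hold, per the file headers, a raw read count and an RPM value per transcript. The authors' RPM equals the count divided by 1 library total, which was recovered from that quotient.

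From these, totals and ratios were computed as RPM, with exact Poisson, conditional binomial, Clopper-Pearson and order-statistic intervals at 95%. Per locus, 1 read was added and a mean of at least 10 counts required. No test was run, since each group has 1 library. RefSeq genes (WBcel235) gave names, order along the chromosome and overlaps. That table has no strand, and sequences and the promoter motif were not used here. Loci were named by rule: the 12 highest sums, the 6 lowest and 6 highest log2 ratios above the minimum, and loci with at least 10 counts in one library and 0 in the other. The loci named among the overlapping ones were chosen after their values were seen. The members and lists were chosen with earlier results of these data known. The overlap of loci, the clone comparison and the neighbour comparison were added after seeing the data. Steps were tested on simulated data. Tools were SciPy 1.17.1, pandas 2.3.3 and NumPy 2.4.6 in Python 3.11.15, with matplotlib 3.10.9 for figures.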

Additional observations from a re-analysis of the deposited data

How the results depend on the processing

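Alternative settings gave 82 values. Of these, 42 lay inside the reported interval or, for numbers of loci, less than 1.5 times away, and 40 lay farther off. No log2 ratio changed sign, while numbers of loci, shares and ratios of ratios could not change sign. All 20 alternative log2 ratios of Y73F8A, totals and medians, were below 0. For the median with no minimum the library totals fixed this, since 857 of the 1118 loci had 0 counts in both libraries. The cause of the shifts was not tested except where the construction shows it. Scaled to the listed counts, the microRNA total and the median of ratios, the log2 ratio of the Y73F8A total, -0.91 as reported, was -1.05, -1.11 and -0.48, and that of all other piRNAs, -1.02 as reported, was -1.15, -1.22 and -0.59. The latter was -1.05 with the 10 most abundant piRNAs kept, -0.96 without the 50 most abundant and -1.14 for Y105C5A and Y105C5B alone. The Y73F8A median was -1.26 by the microRNA total, -0.63 by the median of ratios, -0.62 with a minimum mean of 1 count, which takes in 202 loci, and -0.032, the value of equal counts, with no minimum. The median of the other piRNAs was -1.24, -1.31 and -0.68 under the first 3 scalings, -0.62, -1.28 and -0.032 with minimum means of 1, 50 and none, -0.92 with 5 reads added and -1.25 for Y105C5A and Y105C5B. The number of Y73F8A loci at least 2-fold lower was 9 by the median of ratios, 14 with 5 reads added, 84, 37 and 3 with minimum means of 1, 5 and 50, and 112 with no minimum. At least 2-fold higher loci numbered 18 with a minimum mean of 1 and with none, where 2 reads against 0 already pass. The share of Y73F8A loci in the control library was 14.5%, 10.6% and 4.65% at limits of 2, 3 and 10 counts, and 36.8% among loci without overlap, a choice made after seeing the data; in the snpc-4 library it was 11.6%, 9.30%, 2.50% and 33.4%. The 10 most abundant members held 38.6% and 38.2% without the 50 most abundant piRNAs, which include 21ur-1486. The ratio of ratios was 1.17 against Y105C5A and Y105C5B, also chosen after seeing the data. No paired analysis was possible because each group has 1 library. Depth limits single loci: of the 42 tested, 18 had intervals that include 1, as did 206 of the 508 other piRNA loci tested. Among the 18 were 21ur-4052 and 21ur-6111, whose intervals also lay above the clone's ratio.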

Other observations

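The number in a piRNA's name went with its reads. The 560 Y73F8A loci without overlap were ordered by the number in their 21ur name and divided into 5 groups of 112. Reads in either library were found for 48.2% (38.7% to 57.9%) of the group with the lowest numbers, from 21ur-132 to 21ur-2194, and for 53.6%, 46.4%, 35.7% and 32.1% (23.6% to 41.6%) of the following groups. Control counts were 1176, 604, 376, 172 and 72 from the lowest to the highest numbers, and 817 in the first group without 21ur-1486. The ratio of the libraries rose at each step in its point values, with intervals that overlap. It was 0.501 (0.454 to 0.554) in the first group, then 0.554, 0.559 and 0.574, and 0.598 (0.401 to 0.882) in the last, whose most abundant member was 21ur-10688. The share with reads did not fall from the first group to the second. Names and counts rest on the same annotation, and why they went together was not tested.

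Overlapping loci of Y73F8A lay at preferred distances from each other. Of the 558, 269 start 1 base from the nearest overlapping piRNA locus and 187 start 3 bases from it, against 25 at 2 bases and 36 at 4 bases. A pair of loci, 21ur-8649 and 21ur-8935, have the same start. Of the 558, 406 overlap 1 other locus, 135 overlap 2, 12 overlap 3 and 5 overlap 4. RefSeq positions were used for these distances, and the table does not give the strand of each locus. The distances were counted for Y73F8A alone, so whether they are particular to this clone was not examined.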
